A study of Mus musculus with 43 samples.

Results

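The regions described here are stretches of mouse chromatin where EKLF was called bound in Nan/+ fetal liver, where no overlapping region was called in wild type (WT) fetal liver, and whose centre lay more than 10 kb outside every protein-coding gene. They numbered 2082 of the 15559 regions that the Nan/+ list placed on the named chromosomes, or 13.4%. Both lists together held 24745 regions. They were selected on the positions called in both lists, an overlap of at least 1 bp making a region shared, so the count describes the choice. Among all far regions of the Nan/+ list, 2082 of 2164 had no WT overlap (96.2%, 95% interval 95.3 to 97.0), and 82 did. Lack of overlap was common in the whole Nan/+ list too, at 13278 of 15559 regions. Of the far regions of the WT list, 754 of 835 had no Nan/+ overlap. The same rule applied in reverse gave 754 WT-only far regions among 9174 WT regions, or 8.22%.

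The Nan/+ embryos carry 1 copy of the Nan allele of Klf1, the gene for EKLF, beside a wild-type copy, and the series describes the livers as coming from littermates. All livers came from embryonic day E13.5 and hold a mixture of cells. Each genotype had 3 EKLF ChIP libraries and 2 distinct input libraries, and the authors called 1 list per genotype from them together. ChIP depth per library was 72023512 to 100763687 tags in Nan/+ and 74140385 to 103170594 in WT. The lists hold positions and widths but no strength per region and no value per replicate, so no difference between the genotypes could be set against replicate error. A region called in Nan/+ alone can lie below the calling threshold in WT. Called positions also hold no expression values, so the tissue could not be checked against its markers. Intervals are exact binomial (Clopper-Pearson) for shares and Newcombe intervals for differences of shares. They cover counting error only, and neighbouring regions are not independent.

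EKLF (KLF1) is a zinc-finger transcription factor that activates globin, membrane, heme and cell cycle genes as red cells mature, and it recognises CACCC-type sites. Nan changes an amino acid in a zinc finger, and the resulting protein has been described as binding an altered set of sites in addition to causing dominant anemia. Sequence far from genes is where many blood cell enhancers lie, among them long-range elements of Myc, Runx1, Lmo2, Myb and Kit.

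Sequence was at hand for those far regions that met the start of a long non-coding RNA (lncRNA) gene, since RefSeq promoter windows (GRCm38.p6, the assembly of mm10; 250 bases before to 50 after a start) cover them. In all 27 of the 2082 Nan-only far regions met 33 windows of 28 lncRNA genes, against 30 of 754 WT-only far regions. The share was 1.30% (0.856 to 1.88) in Nan-only and 3.98% (2.70 to 5.63) in WT-only far regions, a difference of -2.68 percentage points (-4.38 to -1.37), and it was 13.4% (6.89 to 22.7) in the 82 shared far regions. The median width was 176 bp in Nan-only and 305 bp in WT-only far regions, but the 2 lists were called with different peak sizes. The part of width in the difference between the Nan-only and WT-only shares was not tested. The share was 2.08% in the regions wider than the minimum and 0.997% in those of the minimum width, and the interval of that difference, -0.0108 to 2.65 points, took in 0. The 33 windows were 0.549% of the 6009 windows that lie this far from protein-coding genes.

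The stretches below lie inside Nan-only far regions and were chosen, after the data were seen, as long stretches at lncRNAs that sit beside genes of interest. They are given 5′ to 3′ on the lncRNA's strand, with matches to CCNCNCCC on either strand in capitals. Chaserr is a lncRNA next to Chd2, a chromatin remodeler gene that it restrains in mouse. The region at Gm39895 lies 64.0 kb from Lmo2, whose product bridges GATA and TAL1 proteins on DNA. Jpx is a lncRNA of the X inactivation centre. The region at Gm10505 lies 97.2 kb from Grm4, a glutamate receptor gene. Gm52919, on chromosome 6, is shown as a stretch with no match.
Chaserr, chr7:73558346-73558645, minus strand: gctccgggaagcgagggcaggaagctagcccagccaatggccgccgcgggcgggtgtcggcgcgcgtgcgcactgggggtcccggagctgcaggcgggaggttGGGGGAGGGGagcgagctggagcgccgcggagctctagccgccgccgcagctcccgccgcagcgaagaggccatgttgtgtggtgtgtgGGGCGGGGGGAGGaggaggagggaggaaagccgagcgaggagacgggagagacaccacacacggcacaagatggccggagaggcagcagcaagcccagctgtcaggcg
Gm39895, chr2:103893810-103894109, plus strand: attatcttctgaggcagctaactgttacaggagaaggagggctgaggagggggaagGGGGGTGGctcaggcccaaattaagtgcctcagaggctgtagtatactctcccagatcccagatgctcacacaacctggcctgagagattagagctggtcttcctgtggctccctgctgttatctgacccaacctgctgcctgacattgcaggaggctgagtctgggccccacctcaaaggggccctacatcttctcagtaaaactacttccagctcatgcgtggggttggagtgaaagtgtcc
Jpx, chrX:103493418-103493593, plus strand: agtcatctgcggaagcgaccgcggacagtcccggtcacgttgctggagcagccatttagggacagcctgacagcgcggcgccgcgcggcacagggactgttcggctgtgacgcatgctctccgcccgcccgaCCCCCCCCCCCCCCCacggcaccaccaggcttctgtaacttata
Gm10505, chr17:27325060-27325245, plus strand: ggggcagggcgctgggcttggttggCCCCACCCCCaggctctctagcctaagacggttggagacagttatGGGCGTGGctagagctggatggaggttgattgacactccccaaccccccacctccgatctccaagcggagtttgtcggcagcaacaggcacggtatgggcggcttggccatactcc
Gm52919, chr6:127321214-127321411, minus strand: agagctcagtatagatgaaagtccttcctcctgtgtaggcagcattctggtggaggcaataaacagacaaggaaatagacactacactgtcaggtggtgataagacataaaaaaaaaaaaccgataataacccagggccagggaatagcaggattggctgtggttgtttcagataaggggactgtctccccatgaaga

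The Chaserr stretch held 4 matches to CCNCNCCC, some overlapping, and was 72.3% G and C, and it lay in a 545 bp region whose nearest WT region was 1.68 kb away. The Gm39895 stretch held 1 match and 2 matches to AGATAA, the core that GATA factors read, in a 443 bp region 13.9 kb from a WT region. In Jpx the 8 overlapping matches all fell in 1 run of C, so they are not 8 sites. Gm10505 held 3 matches, 1 of them CCNCACCC and 1 CCNCGCCC. Gm52919 held none, but 1 match each to AGATAA and TGATAA. Of the 27 regions 9 had a CCNCNCCC match in the stretch that the windows cover, which ran from 3 to 300 bases and so cannot speak for a whole region.

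Read over whole windows of 300 bases on both strands, CCNCNCCC was present in 16 of the 33 windows met by Nan-only far regions (48.5%, 30.8 to 66.5). It was present in 40.0% (26.4 to 54.8) of the 50 windows met by WT-only far regions, in 29.6% of the 6009 far windows and in 49.8% of all 32618 windows. CCNCGCCC, the central variant with G, stood in 7 of 33 (21.2%, 8.98 to 38.9), against 14.0% (5.82 to 26.7) of windows met by WT-only far regions, 4.59% of far windows and 24.1% of all windows. CCNCACCC stood in 12.1%, against 14.0% of windows met by WT-only far regions, 12.1% of far windows and 16.7% of all windows. CCNCCCCC and CCNCTCCC, the other variants of the same pattern, stood in 11 and 8 of the 33 windows met by Nan-only far regions, against 6 and 7 of the 50 met by WT-only far regions. AGATAA stood in 12.1% (3.40 to 28.2), against 24.0% (13.1 to 38.2) for WT-only far regions, 16.5% of far windows and 11.2% of all windows. Median GC was 51.0% in those met by Nan-only far regions, 48.2% in those met by WT-only far regions and 46.7% in all far windows. With 33 windows, some of them repeats of 1 start, the intervals of the Nan-only and WT-only sets overlapped for CCNCNCCC, its 4 variants and AGATAA. Overlap of separate intervals does not show that the shares were equal. Intervals for the differences between these window sets were not computed, so whether the sets differ was not tested.

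A search for miRNA genes near the Nan-only far regions did not cover every chromosome. It found 2 of these regions within 3 kb of a hairpin, with 9 hairpins in that range. No share of all Nan-only or WT-only far regions is given for it. A 279 bp region at chr13:48535431-48535709 lay 302 bp from the hairpin of let-7d and 2119 and 2469 bp from those of let-7f-1 and let-7a-1, and its nearest WT region was 10.1 kb away. A 176 bp region at chr14:115045747-115045922 lay 1240 bp beyond the hairpin of miR-92a-1 and 1992 bp beyond that of miR-17, the outer members of the miR-17-92 cluster, with a WT region 3.43 kb away. The let-7 miRNAs restrain proliferation and the miR-17-92 cluster promotes it. Mature sequences from RefSeq are shown with the seed (bases 2 to 8) in capitals because the let-7 group shares 1 seed and the cluster carries several.
let-7d-5p: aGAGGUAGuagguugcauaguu
let-7f-5p: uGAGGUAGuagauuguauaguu
let-7a-5p: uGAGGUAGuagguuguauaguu
miR-17-5p: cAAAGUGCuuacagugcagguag
miR-20a-5p: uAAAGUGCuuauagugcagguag
miR-19b-3p: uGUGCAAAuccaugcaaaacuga
miR-92a-3p: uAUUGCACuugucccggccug

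The Nan-only far regions were mostly of the smallest width that the Nan/+ list holds. Of the 2082, 577 were wider and 1505 measured exactly 176 bp, the minimum, and are called narrow here (72.3%, 70.3 to 74.2). The wider ones ran from 219 to 949 bp with a median of 237 bp, and 18 exceeded 500 bp. In the whole Nan/+ list the minimum-width share was 54.5%, in Nan-only regions nearer to genes 59.2% (58.3 to 60.1), and in the 82 shared far regions 30.5% (20.8 to 41.6). The share among Nan-only far regions exceeded that of nearer Nan-only regions by 13.1 points (10.9 to 15.2) and that of shared far regions by 41.8 points (31.0 to 50.9). A wider region has more bases with which to overlap a WT region. The difference from shared regions is therefore not independent of the overlap rule that chose them. Turned round, 11.2% of wider and 18.5% of narrow Nan-only regions were far, a difference of -7.30 points (-8.50 to -6.08). Width is an output of the caller, and the WT list was called with other settings, so these comparisons of width stay within the Nan/+ list. Its relation to binding strength was not tested.

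The widest 10 of these regions lay beside genes of varied function. The widest of all, 949 bp at chr8:4677735-4678683, lay inside the lncRNA Gm6410, 45.6 kb from Zfp958 and 402 kb from any WT region. The next, 725 bp at chr15:81522884-81523608, lay between Rbx1, a ubiquitin ligase subunit, and Ep300, a histone acetyltransferase that works as a partner of many activators, and a WT region stood 0.641 kb away. A 718 bp region lay 141 kb from Zfp608, a zinc finger gene, with no WT region within 683 kb. A 695 bp region lay 128 kb from Gadd45g, a stress response gene, and 0.149 kb from another Nan/+ region.

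The other 6 of the widest regions each had a WT region within 10.4 kb. A 647 bp region lay 32.2 kb from Med13l, a subunit gene of the Mediator kinase module. Those of 576, 568, 561 and 553 bp lay nearest to Bod1, Fcnb, Zfp36l2 and Cct8l1. Zfp36l2 encodes an mRNA decay factor that sustains erythroid progenitors.

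Distances ran on without a gap across the 10 kb threshold. The 3 regions just inside it lay 10042, 10043 and 10055 bp from Dysf, Galnt2 and Ipo8, and the 3 just outside lay 9991.5, 9984 and 9978 bp from Eipr1, Larp4b and Krt18. The closest misses of a WT region were 2 bp at a 373 bp region near Rftn1, 12 bp at a 264 bp region at Malat1 and 14 bp at a 176 bp region near Dcaf12.

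Nan-only far regions became sparser with distance from genes, and the narrow ones less so than the wider ones. Their density over all far sequence was 1.61 per Mb of 1292 Mb. By distance it was 3.90 per Mb at 10 to 20 kb, 2.94 at 20 to 50 kb, 1.75 at 50 to 100 kb, 1.10 at 100 to 200 kb, 0.667 at 200 to 500 kb and 0.260 beyond 500 kb. The WT-only far regions had 1.59, 1.12, 0.649, 0.425, 0.111 and 0.0465 per Mb in the same bands. The wider share of the Nan-only far regions was 32.9% (29.0 to 37.0) in the nearest band and 14.3% (6.38 to 26.2) in the farthest.

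**Figure D1:**
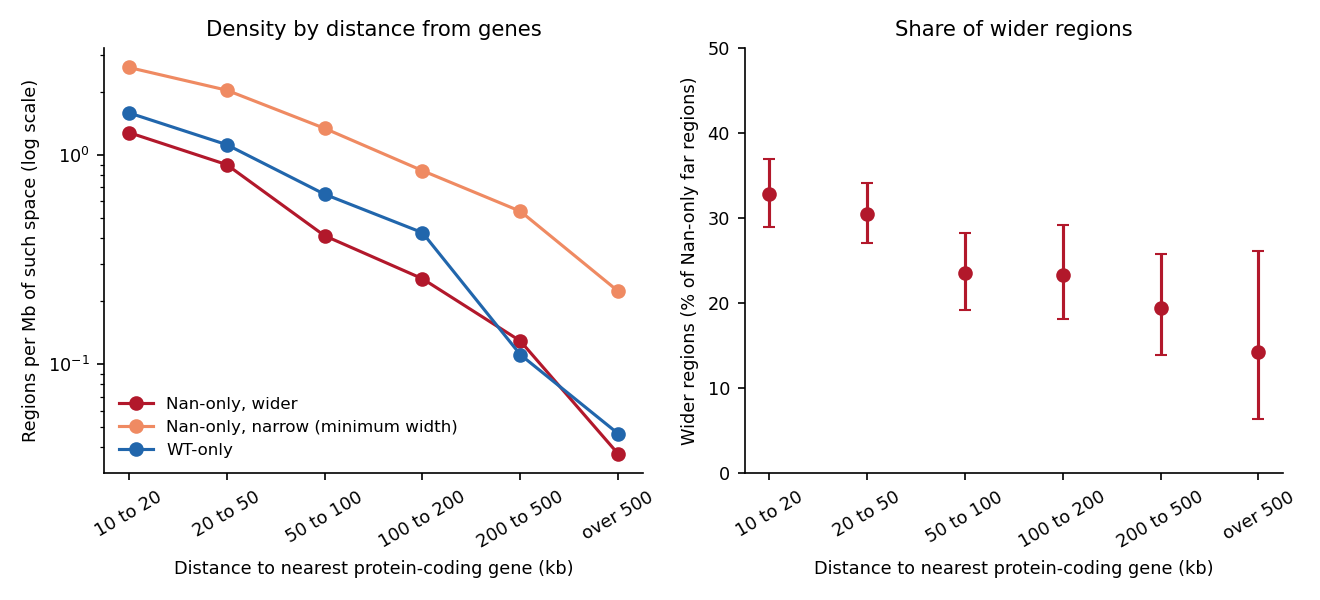
Left, regions per Mb of sequence at each distance from the nearest protein-coding gene (log scale) for wider and narrow Nan-only far regions and WT-only far regions. Right, the share of wider regions among Nan-only far regions in each band with exact binomial 95% intervals, 32.9% at 10 to 20 kb and 14.3% beyond 500 kb.

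The median distance to a protein-coding gene was 32.0 kb for wider and 41.2 kb for narrow Nan-only far regions. Beyond 100 kb lay 17.3% of the wider and 25.4% of the narrow, a difference of -8.05 points (-11.7 to -4.12). Within 50 kb lay 68.3% of the wider and 56.7% of the narrow, a difference of 11.6 points (6.98 to 16.1). Only 8 wider regions and 48 narrow ones lay beyond 500 kb. The farthest, at chr14:90385401-90385576, was 176 bp wide and 1914 kb from Pcdh20, a protocadherin gene. Compared with the reverse class, 23.2% of the Nan-only and 17.8% of the WT-only far regions lay beyond 100 kb, a difference of 5.38 points (1.99 to 8.55).

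Few of these regions were near misses of a WT region. Within 1 kb of a WT region lay 52 of the 2082 (2.50%, 1.87 to 3.26), and within 10 kb 13.4% (11.9 to 14.9). Beyond 100 kb from any WT region lay 41.5% (39.4 to 43.7) and beyond 1000 kb 6.34% (5.33 to 7.47). Wider regions lay closer than narrow ones, with medians of 37.7 kb and 77.5 kb, and 20.8% of wider against 10.5% of narrow regions lay within 10 kb (difference 10.3 points, 6.78 to 14.1). WT-only far regions lay a median of 17.5 kb from the nearest Nan/+ region, and the Nan/+ list is the longer of the lists. Nan-only regions nearer to genes lay a median of 26.0 kb from a WT region.

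**Figure D2:**
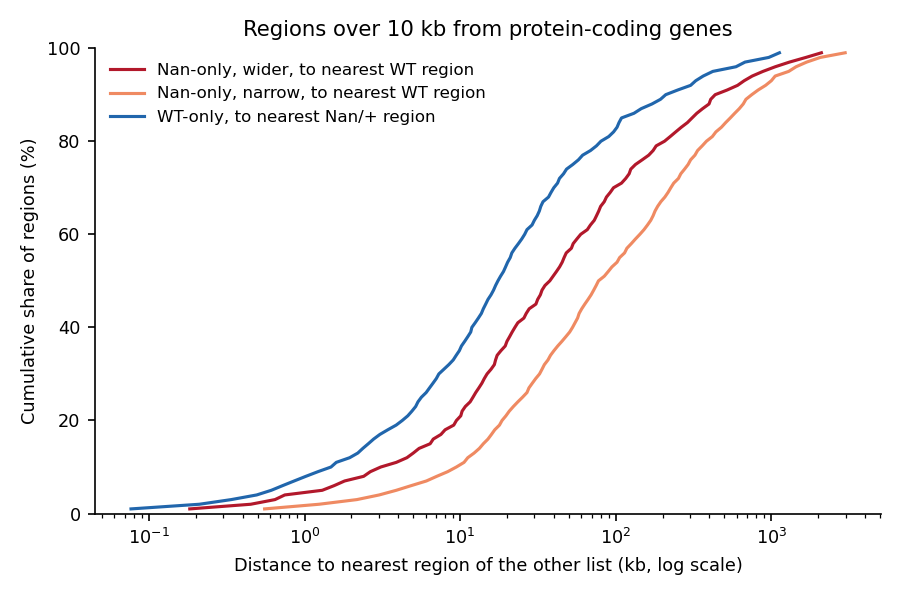
Cumulative share of far regions (vertical axis, percent) by distance to the nearest region of the other genotype's list (horizontal axis, kb, log scale). The curve of wider Nan-only regions (median 37.7 kb) lies left of that of narrow ones (median 77.5 kb), and the curve of WT-only regions (median 17.5 kb to a Nan/+ region) lies left of both.

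The intervals between neighbouring protein-coding genes show where these regions gathered. They fell in 1269 intervals, of which 887 held 1 and 61 held at least 5. No WT region lay in 828 of these intervals, which together held 1095 of the regions (52.6%, 50.4 to 54.8). The share of all intergenic intervals that lack a WT region was not counted, so this share has no base beside it. That share was 45.9% (41.8 to 50.1) for wider and 55.1% (52.6 to 57.7) for narrow regions.

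The fullest interval lay between Runx1, a transcription factor gene needed for the first blood stem cells and for megakaryocytes, and Setd4. It held 19 Nan-only far regions, 7 of them wider, and 5 WT regions, 1 of which a Nan/+ region overlapped. The widest of the 19 measured 437 bp and lay 293 kb from Runx1 at chr16:93119264-93119700, 14.0 kb from a WT region. The regions ran from 28.6 to 728 kb from Runx1. The closest to a WT region missed it by 4.00 kb, and the others lay up to 214 kb away.

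The interval between Myc, the growth and proliferation factor gene, and Gsdmc was next with 15, of which 4 were wider, and 5 WT regions. Of these 15, 5 narrow regions formed a cluster 15.9 to 48.7 kb from Myc that held no WT region. Pvt1, the lncRNA beside Myc, held 4 regions, 2 of them wider (333 and 238 bp). A 220 bp region lay 492 kb from Myc and 323 kb from any WT region. On the other side of Myc a further 2 narrow regions lay 308 and 854 kb away.

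Other intervals differed in how many WT regions they held. Between Spring1 and Med13l 14 Nan-only far regions lay among 20 WT regions, between Anxa3 and Bmp2k 13 lay among 10, and between C330018D20Rik and Megf10 12 lay among 13. In contrast the intervals between Tspan18 and Cd82, Zfp608 and Gramd3, Stk3 and Osr2, and Gng2 and Saysd1 held 10, 9, 9 and 8 and no WT region at all. Tspan18 and Cd82 encode tetraspanins. The interval between Slc10a2 and Efnb2 also had no WT region, and its 7 regions lay 1410 to 2070 kb from the nearest one.

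**Figure D3:**
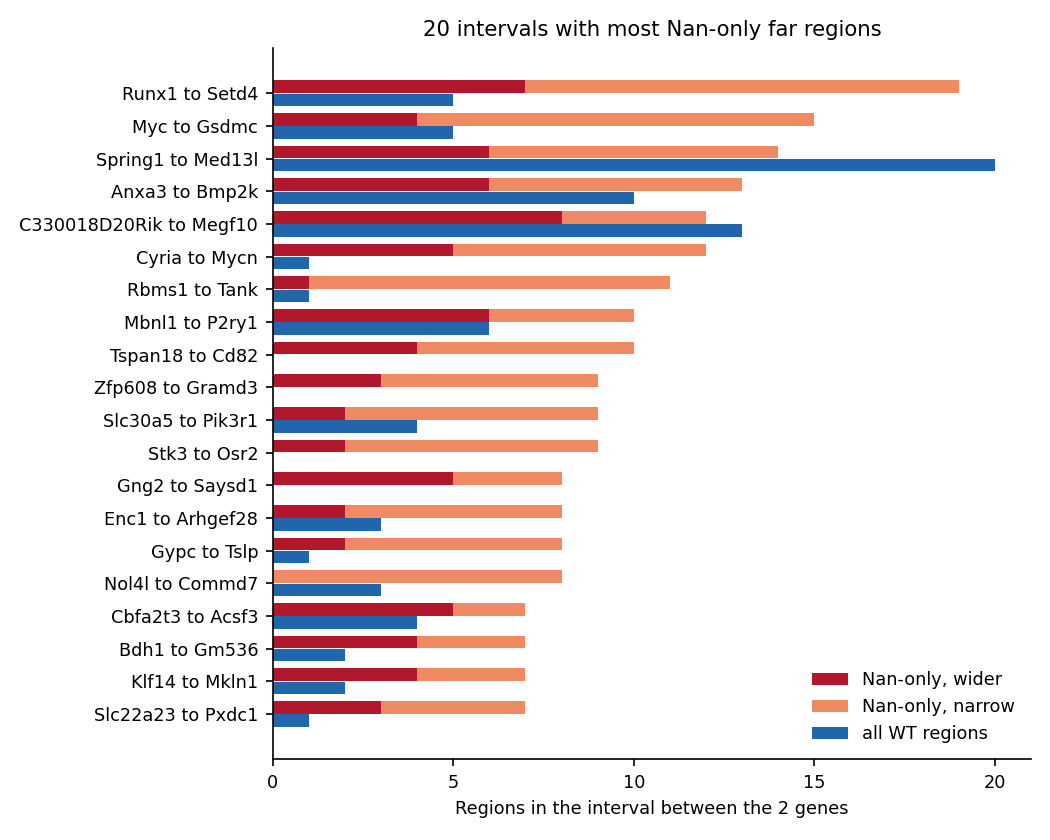
Number of Nan-only far regions (red, wider; orange, narrow) and of all WT regions (blue) in the 20 intergenic intervals that hold most Nan-only far regions, from 19 between Runx1 and Setd4 downward. Several further intervals also hold 7. Bars for WT are absent at Tspan18 to Cd82, Zfp608 to Gramd3, Stk3 to Osr2 and Gng2 to Saysd1, where there was none.

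**Figure D4:**
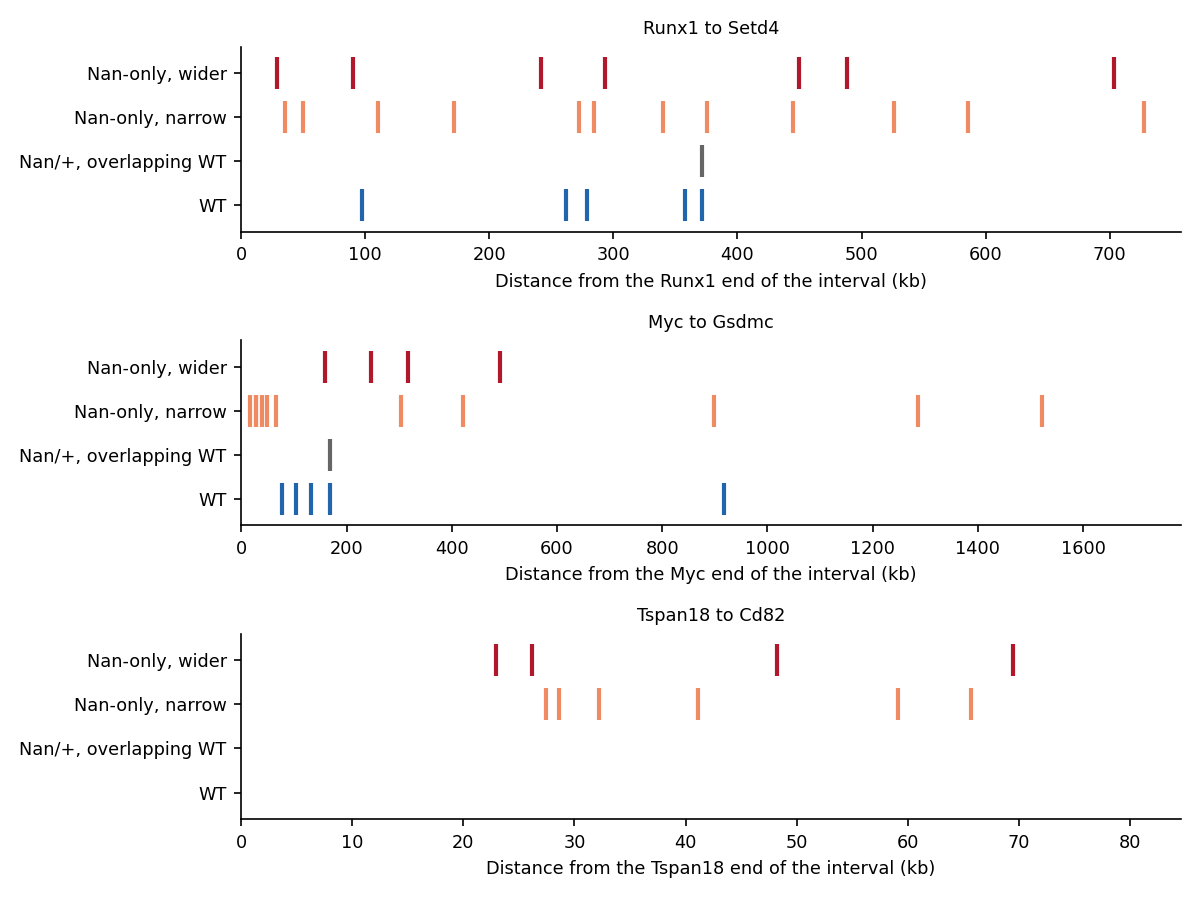
Positions of regions in 3 intervals, as distance in kb from the end nearest the first gene: wider and narrow Nan-only far regions, Nan/+ regions that overlap WT, and WT regions. The 19 regions between Runx1 and Setd4 spread over the interval, the 15 between Myc and Gsdmc lie mostly toward Myc, and the interval between Tspan18 and Cd82 holds 10 and no WT region.

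Clusters were formed by chaining region centres at 12500 bp or less. In this way 514 of the 2082 regions (24.7%, 22.8 to 26.6) fell into 201 clusters, 147 of them pairs, and 176 clusters held no WT region in their span. By the rule no member of a cluster overlaps a WT region, and most spans are short, so that last count partly follows from the choice. WT-only far regions clustered more often, at 33.3% (29.9 to 36.8), a difference of -8.60 points (-12.5 to -4.82). Wider regions were in clusters more often than narrow ones, at 31.2% and 22.2%, with an interval of 4.76 to 13.4 points for the difference. The largest cluster held 10, 4 of them wider, over 46.9 kb between Tspan18 and Cd82 (chr2:93357241-93404122). The next 4 held 7 each, between Anxa3 and Bmp2k, beside Cyria in the lncRNA Gm34489, between Bdh1 and Gm536, and beside C330018D20Rik.

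Among protein-coding genes that border far sequence, 1388 of 12605 (11.0%) were the nearest gene of at least 1 Nan-only far region, and 2341 (18.6%) were nearest to or flanked 1. Of the 1388 genes 1029 had 1 region and 43 had at least 5. Cyria, a regulator of Rac1 signalling, and Myc led with 13 each. Runx1 had 12, Zfp608 11, and C330018D20Rik, P2ry1 and Nck2 10 each. P2ry1 encodes an ADP receptor of platelets and Nck2 an adaptor protein. Med13l and Pik3r1, a regulatory subunit gene of PI3 kinase, had 9 each and Gypc 8. Anxa3, Gm536 and Setd4 had 7 each, and Acsf3 had 6.

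Genes with long empty flanks can gather more regions, so lists of genes were described by their regions per Mb of far sequence to which they are nearest, against 1.61 over all protein-coding genes. A second value took the 10 to 50 kb band alone, against 3.30 per Mb over all genes. Of the erythroid transcription factors and partners, 11 of the 20 that border far sequence were nearest to a Nan-only far region, with 37 regions or 9.03 per Mb, and 21.0 per Mb in the band. Runx1 and Myc gave 12 and 13 of the 37, and without them the density was 5.21. WT-only far regions near this list had 2.93 per Mb, against 0.584 over all genes. Of the 9 other genes nearest to a region, Lmo2 had 3, Max 2 and Gata2, Sox6, Tcf3, Foxo3, Myb, Ikzf1 and Nr3c1 1 each, and the rest of the list had 0.

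The blood cell genes listed for distal enhancers, which share genes with the erythroid list, Runx1, Myc, Lmo2, Myb, Gata2, Sox6 and Ikzf1 among them, had 12 of 21 genes nearest to a region. Their density was 6.45 per Mb, 16.1 in the band, and 3.93 without Runx1 and Myc. WT-only far regions were also dense there, at 2.66 per Mb and 8.53 in the band, against 0.584 and 1.30 over all genes. Mef2c, a factor of megakaryocytes and lymphoid cells, had 6 and Zfp36l2 4.

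Genes of the red cell membrane had the highest density of any list that borders over 0.6 Mb of far sequence. Of 13 such genes 6 were nearest to a region, with 16 regions or 24.8 per Mb and 34.6 in the band. WT-only far regions also stood at 9.29 per Mb there. Gypc, which encodes glycophorin C, had 8 regions, 2 of them wider. Slc2a1, the glucose transporter gene, had 2, and Sptb, Tpm1 and Add2, genes of the spectrin and actin skeleton, had 1 each.

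Other erythroid lists rested on fewer regions. Iron uptake and storage had 3 of 10 genes (against 11.0% of all genes) and 5 regions, of which 3 lay at Slc11a2, the gene of the iron transporter DMT1. Its density was 7.71 per Mb, 16.0 in the band, and 1.64 without Slc11a2 and Fth1. Erythropoietin and Kit signalling had 4 of 10 genes and 5 regions, with Jak2 at 2, or 3.80 per Mb and 8.58 in the band. None of the 2 globin and 5 heme synthesis genes that border far sequence was nearest to a region, but those lists border only 0.00440 and 0.106 Mb of it. The KLF and Sp family had 5 of 24 genes and 3.57 per Mb. Of its 16 regions Klf14 had 6 and Klf13 5, and without both the density was 1.21. WT-only far regions stood at 1.54, 1.52 and 1.12 per Mb near the iron, signalling and KLF and Sp lists, against 0.584 over all genes. Those values rest on 1, 2 and 5 WT-only regions. The globin list had 1 WT-only far region and the heme synthesis list 0. Klf1 itself was not among the genes nearest to a Nan-only far region. Of the 26 genes of this list 24 border far sequence, and a gene that borders none cannot be nearest to such a region. Whether Klf1 borders any is not given here, so its absence can follow from the rule.

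Lists of other cell types rested on few genes and are set against the 11.0% of genes and 1.61 regions per Mb over all protein-coding genes. Macrophage and endothelial markers had 0 of 12 and 0 of 9 genes nearest to a region, on 0.406 and 1.36 Mb of far sequence, a base on which a low value was not detectable. Hepatoblast markers had 2 of 9 genes (22.2%), Foxa2 and Dlk1, at 0.766 per Mb. Lymphoid and stem cell markers had 3 of 12 genes at 1.73 per Mb. Megakaryocyte markers had 8.62 per Mb, but 12 of their 13 regions lay at Runx1. Housekeeping genes had 2 of 7 genes, Ywhaz and Actb, with 4 regions in 0.237 Mb or 16.9 per Mb. Cell cycle regulators had 2 of 13 genes, Ccne1 and Cdk6, with 3 regions or 2.66 per Mb. WT-only far regions stood at 3.32 per Mb near the megakaryocyte, 4.22 near the housekeeping and 0.735 near the endothelial list, against 0.584 over all genes. Those values rest on 5, 1 and 1 WT-only regions, and the macrophage, hepatoblast, lymphoid and stem cell, and cell cycle lists had 0.

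The large gene families differed among themselves. Olfactory receptor genes had 6 of 758 genes and 0.546 per Mb, with 0.660 in the band, and vomeronasal receptor genes 3 of 338 and 0.229 per Mb. Cadherins and protocadherins had 10 of 32 genes (31.2%) but 0.378 per Mb of their long flanks. Developmental factor families (Hox, Pax, Sox, Fox, Irx, Pou, Lhx, Nkx and Tbx) had 17 of 113 genes at 0.863 per Mb, and zinc finger genes named Zfp had 18 of 236 at 2.03 per Mb. WT-only far regions were also below their value over all genes at the receptor families, with 0.0909 and 0.0763 per Mb.

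**Figure D5:**
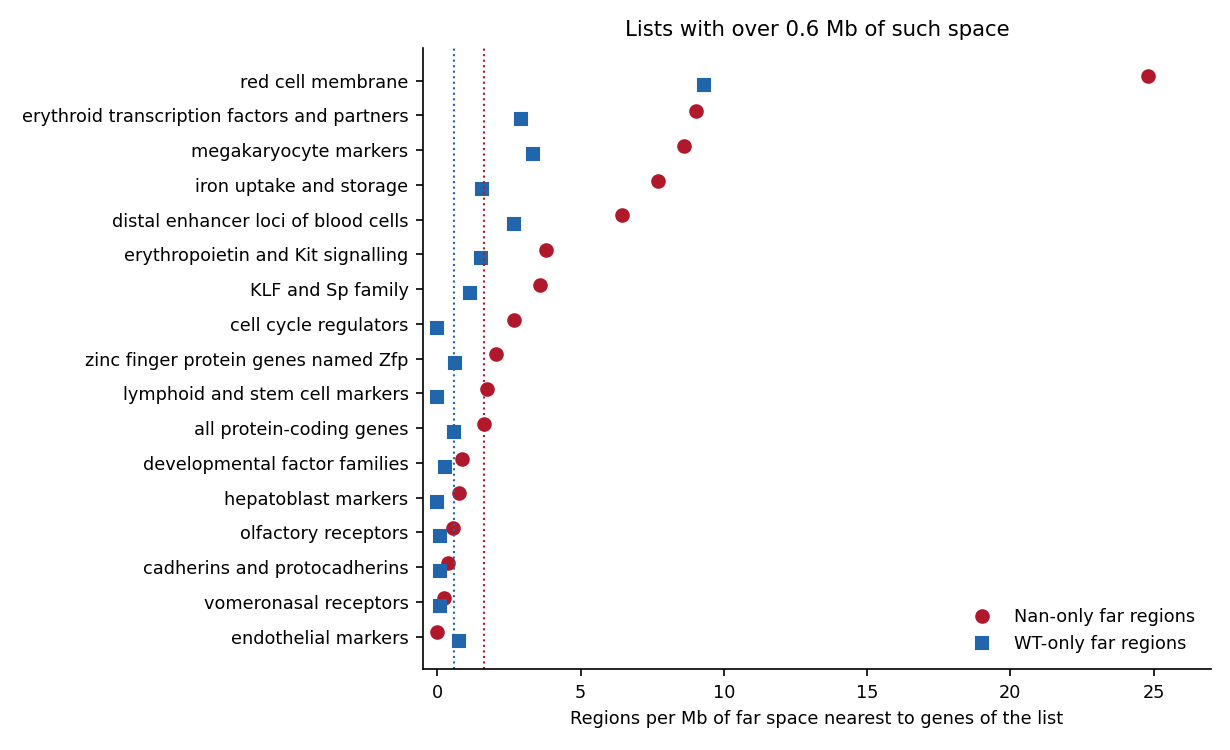
Nan-only far regions (red circles) and WT-only far regions (blue squares) per Mb of far sequence nearest to the genes of each list, for lists with over 0.6 Mb of such sequence. Dotted lines mark the values over all protein-coding genes, 1.61 and 0.584 per Mb; the red cell membrane list stands highest at 24.8 and 9.29.

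At single loci with known distant enhancers the regions were unevenly placed. Lmo2 had 3, of 224, 443 and 176 bp, at 67.6, 64.0 and 12.4 kb, and the last missed a WT region by 0.330 kb. Myb, the factor that keeps progenitors cycling, had 3 narrow regions between it and Hbs1l, at 32.5, 74.0 and 90.7 kb from Myb and 3.02, 6.07 and 22.7 kb from WT regions. Gata2 had 1 of 275 bp at 23.2 kb, 92.3 kb from a WT region. Kit, the stem cell factor receptor gene, had 1 of 496 bp at chr5:75280763-75281258, 294 kb away and closer to Pdgfra, with no WT region within 1188 kb. Sox6 had 1 of 236 bp at 26.1 kb, Fli1 1 of 221 bp at 16.3 kb, Klf3 1 narrow region at 40.1 kb and Bcl11a 1 narrow region at 136 kb. WT-only far regions at the same loci numbered 3 at Lmo2, 1 at Myb and 1 at Fli1, and Myb also had 1 shared far region. Gata2, Kit, Sox6, Klf3 and Bcl11a had neither kind. None flanked Tal1, Hbb-bs, Klf6, Tfrc or Cebpa, where Tfrc had 1 WT-only and 1 shared far region. The counts at these loci were not set against the far sequence that each gene borders. A gene with close neighbours can flank none by the rule.

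Non-coding genes did not enter the rule. Of the 2082 regions 488 (23.4%, 21.6 to 25.3) lay inside a non-coding gene or pseudogene, 462 of them in 380 lncRNA genes. The share was 30.8% (27.5 to 34.2) in WT-only far regions, a difference of -7.33 points (-11.1 to -3.63). Between wider and narrow regions it was 25.8% and 22.5%, and the interval of the difference, -0.742 to 7.54 points, took in 0. Inside or within 1 kb of such a gene lay 32.2% of wider and 25.3% of narrow regions, a difference of 6.92 points (2.60 to 11.4). Gm33497 between Stk3 and Osr2 held 8 and Gm34489 beside Cyria 7. Lncpint, a p53-regulated lncRNA in mouse, held 5. The Malat1 locus held 3, of which 2 were wider.

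The chromosomes differed in density and in width. Density was lowest on X, at 0.640 per Mb, and highest on chromosome 19, at 2.53 per Mb. On X 15.9% of the regions were wider (8.24 to 26.7), against 38.8% (29.1 to 49.2) on chromosome 18 and 37.9% (25.5 to 51.6) on 19. WT-only far regions stood at 0.278 per Mb on X and were lowest on chromosome 8, at 0.233.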

How the data were processed

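Per the file headers, the authors called EKLF peaks with HOMER on mm10, 1 list per genotype from 3 ChIP libraries against input libraries, with thresholds of q 0.01 and fold 4. A DESeq2 step inside HOMER then asked for FDR 0.01 and log2 fold 2. Peak size and minimum distance were 175 and 300 bp in Nan/+, against 125 and 250 bp in WT, per the file headers. The tools named in the submitters' processing notes, with no role given, are bcl2fastq 2.17, Bowtie2 2.1, SAMtools 1.1 and deepTools 3.5. The score deposited by the authors was 1 in every row and was not used as a measure.

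Positions were read with Python 3.11.15, pandas 2.3.3, NumPy 2.4.6 and SciPy 1.17.1, and figures drawn with matplotlib 3.10.9. Mitochondrial and unplaced regions, 5 in Nan/+ and 7 in WT, were dropped. Genes came from a RefSeq table of GRCm38.p6, with 21519 protein-coding genes used after entries below the first 3 Mb, which carry alternate-locus positions, were dropped. Distances run from region centres to genes and from edge to edge between regions. Far sequence was assigned to its nearest gene for densities. Strand, exons and UTRs are not in this table. Of 280 list entries 279 matched. Promoter windows of opposite strands were reverse complements in 1838 of 1838 overlapping pairs. The code for distances, overlaps and nearest genes was tested on simulated regions, and that for the Newcombe interval on a textbook case. Shares carry 95% intervals, and no p-value was computed, because there is 1 list per genotype and regions are not replicates.

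The regions and gene lists were chosen with earlier results of these data known. Named items were the widest 10 regions, the 5 largest clusters, regions at the threshold, the leading genes of each list, the 15 genes nearest to most regions, leading non-coding genes and 16 fixed loci. Intervals between genes, lncRNA promoters and miRNAs were chosen after their values were seen. Some genes that this rule names are not reported here. Planned sequence counts over whole regions need a genome and were not analysed here. Alternatives were other distances, other definitions of Nan-only, other gene sets and other cluster distances.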

Additional observations from a re-analysis of the deposited data

How the results depend on the processing

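Across 14 alternative settings 60 of 80 values were labelled the same as reported. A count was so labelled within a set fold of the reported one, so 2567 and 1526 regions passed beside 2082. A share had to fall inside the reported interval, and the interval of a difference had to leave out 0 as before. The differences of wider minus narrow, which alone have a direction, kept their sign. Over 5 kb from genes, the share beyond 100 kb was 18.8%. Over 20 kb, that share was 31.6%. Over 50 kb, 835 regions at 565 nearest genes were left, 78.1% of the minimum width, 57.7% beyond 100 kb and 129 in clusters, and the difference of wider minus narrow beyond 100 kb was -3.94 points with an interval of -12.1 to 4.07. With distance taken to every gene of the table, non-coding genes included, 1123 regions at 848 genes were left, 74.7% of the minimum width, 6.95% beyond 100 kb and 215 in clusters, and wider minus narrow beyond 100 kb was -3.64 points (-6.34 to -0.212), against -8.05 as reported. Wider regions alone numbered 577 at 461 genes, with 17.3% beyond 100 kb, 88 in clusters and 25.8% in non-coding genes. With centres chained at 5 kb, 281 regions were in clusters, and at 25 kb 695, against 514 as reported. Counting both flanking genes gave 2341 genes. Fewer regions enter under the stricter settings by construction. The cause of the other shifts was not tested. Values without chromosome X, under the 3 other definitions of Nan-only, and with alternate-locus genes kept, which was added after the data were seen, stayed near the reported ones.

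No paired analysis was possible because the lists hold no values per library, so leaving out a replicate was not possible either. Depth limits what is called: EKLF bound in WT below the calling threshold was not measured.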
